A study of Mus musculus with 12 samples.

Results

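The genes of mitochondrial and peroxisomal fatty acid oxidation (FAO) were described in epididymal white adipose tissue (eWAT) of mice on 4 diets. The 37 genes were listed by name and sorted by the compartment of their proteins, with 20 mitochondrial, 13 peroxisomal and 4 with products in both compartments. All 37 were found by their transcript identifiers among 22947 genes, and 36 of them were among the 12775 genes with at least 1 FPKM (the fragments of a transcript, scaled to its length and to the size of the library) in at least 3 libraries. The one that did not pass was *Acox2*, with a mean of 0.316 FPKM over all libraries, which codes for an acyl-CoA oxidase best known for bile acid precursors and branched chains.

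Male C57BL/6J mice received their diets for 16 weeks and were 21 weeks old at the end, and 3 mice of each group gave 1 library each. ND mice ate a normal diet and HFD mice a high-fat diet. CLE mice ate the high-fat diet with 1.5% by weight of an ethanol extract of chrysanthemum leaf, and LU mice ate it with 0.003% by weight of luteolin, a flavonoid of the same leaf. The high-fat diet was therefore shared by HFD, CLE and LU, and the same 3 HFD mice served as the reference for both supplements. The RNA came from the whole fat pad, in which adipocytes, macrophages and vascular cells are mixed, so fewer cells of a type and less RNA per cell cannot be told apart.

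Long-chain fatty acids enter mitochondria as carnitine esters and are then shortened in a repeated cycle of dehydrogenation, hydration, a second dehydrogenation and thiolysis. Electrons from the acyl-CoA dehydrogenases leave through the electron transfer flavoprotein. Peroxisomes take very long, branched and dicarboxylic chains, shorten them with their own set of enzymes and hand the products on, and a branched chain with a methyl group next to the carboxyl carbon first needs alpha oxidation. White adipocytes mainly store and release fatty acids, and their capacity for oxidation is modest beside that of liver, muscle or brown fat.

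The libraries were of like scale, with totals over genes between 435095 and 455040 FPKM, and within a group any pair correlated across genes with a Pearson's r between 0.991 and 0.996. The number of reads behind these values is unknown, because FPKM values were deposited. No pair of libraries held identical values. In 4 libraries, those of mouse 3 and mouse 4 of ND, mouse 4 of CLE and mouse 2 of LU, the sample title carries a letter R whose meaning the labels do not give, and no HFD library carries it. Defining genes of adipocytes were abundant in every library, with *Adipoq* between 1107 and 2292 FPKM. The summed FPKM of 10 adipocyte markers was 34475 to 36465 in ND, 15827 to 18110 in HFD, 26282 to 29542 in CLE and 25026 to 30734 in LU. The sum of 12 macrophage markers was 380 to 543 in ND, 2808 to 3254 in HFD, 637 to 1035 in CLE and 1028 to 1244 in LU. All 10 adipocyte markers fell in HFD against ND, while 11 of 12 macrophage markers rose, and each of these 21 genes lay without overlap between the groups. In CLE against HFD 10 adipocyte markers rose and 11 macrophage markers fell, and in LU against HFD 5 rose and 11 fell, while in CLE against LU none of either list was called. The part of these shifts in the results was not tested.

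HFD feeding lowered more FAO genes than it raised. Against ND, 10 of the 36 tested genes fell and 4 rose by limma on log2(FPKM + 1), where a call needed a change of over 1.5-fold beside an adjusted p below 0.05. Of all genes tested, 25.6% were called in this comparison, 14.9% higher and 10.8% lower. The median log2 fold change was -0.35 over the FAO genes and -0.02 over all genes. By adjusted p alone, 19 were lower and 8 higher, where 50.5% of all genes passed, 24.8% lower and 25.7% higher. The groups did not overlap for 31 of the 36 genes, 21 lower and 10 higher in HFD, beside 59.5% of all genes. With 3 mice against 3, an exact permutation test of a single gene cannot give a two-sided p under 0.1, so calls rest on the model across genes.

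**Figure D1:**
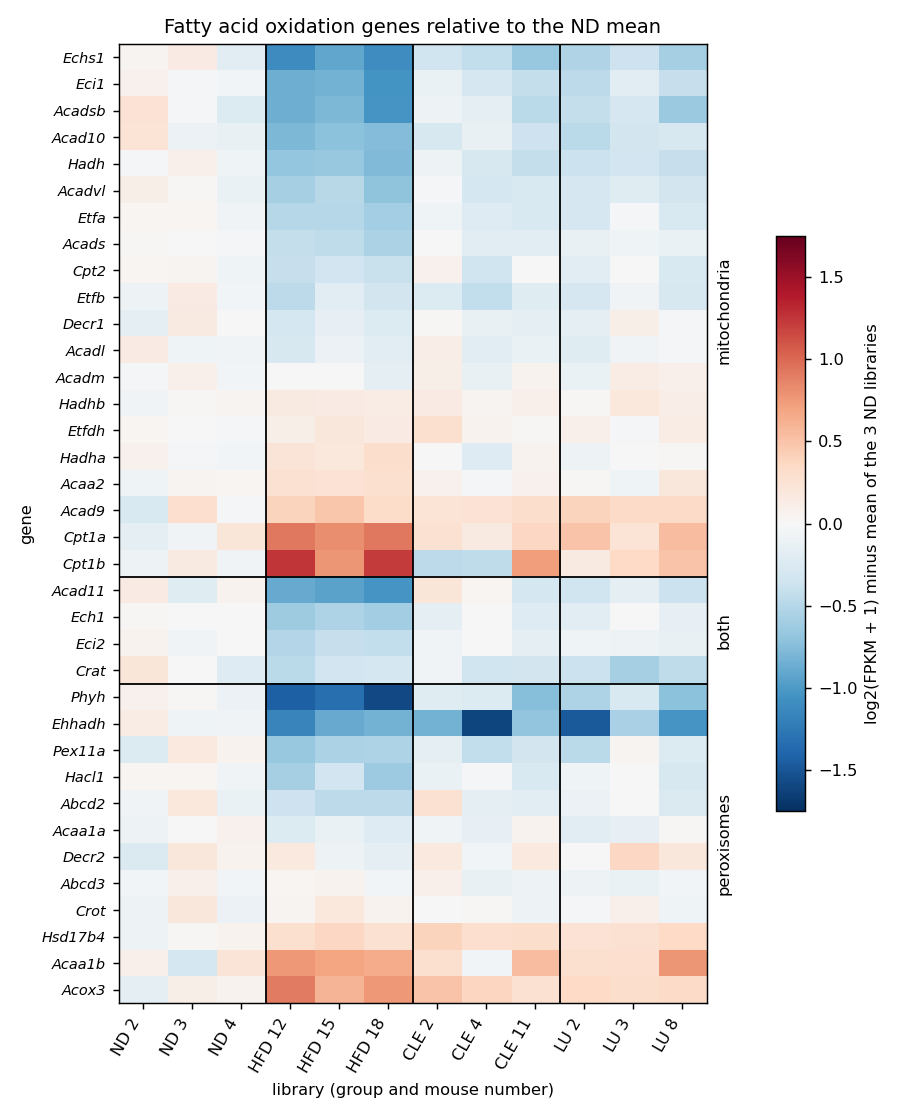
Difference of each library's log2(FPKM + 1) from the mean of the 3 ND libraries, for the 36 tested genes (rows, by compartment and by log2 fold change of HFD against ND) in 12 libraries (columns, group and mouse number). Blue is lower and red higher than ND. The 3 HFD columns are blue in the upper mitochondrial and peroxisomal rows and in all both-compartment rows, deepest for *Phyh* at -1.44 on average, and red in the lower mitochondrial and peroxisomal rows, up to *Cpt1b* at 1.08.

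The counts of called genes are given by compartment, beside 10.8% of all genes called lower and 14.9% called higher. The shares called in either direction were 40% for mitochondrial, 50% for both-compartment and 33.3% for peroxisomal genes, beside 25.6% of all genes. Of the 20 mitochondrial genes, 6 fell and 2 rose in HFD against ND, with a median log2 fold change of -0.28. Among the 4 genes of both compartments 2 fell and none rose, with a median of -0.52. Of the 12 peroxisomal genes tested, 2 fell and 2 rose, with a median of -0.11. Summed over the mitochondrial genes, FPKM was 2194 ± 84.1 in ND and 1775 ± 54.3 in HFD (mean ± SD, n = 3), and over the genes of both compartments it was 727 ± 38.2 and 477.8 ± 13.1. The peroxisomal sum was 832 ± 21.2 in ND and 774.5 ± 18.3 in HFD. None of these 3 sums overlapped between ND and HFD, although the lowest peroxisomal sum of ND, 810.1 FPKM, stood close to the highest of HFD, 787.3 FPKM. The differences between compartments were not tested.

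**Figure D2:**
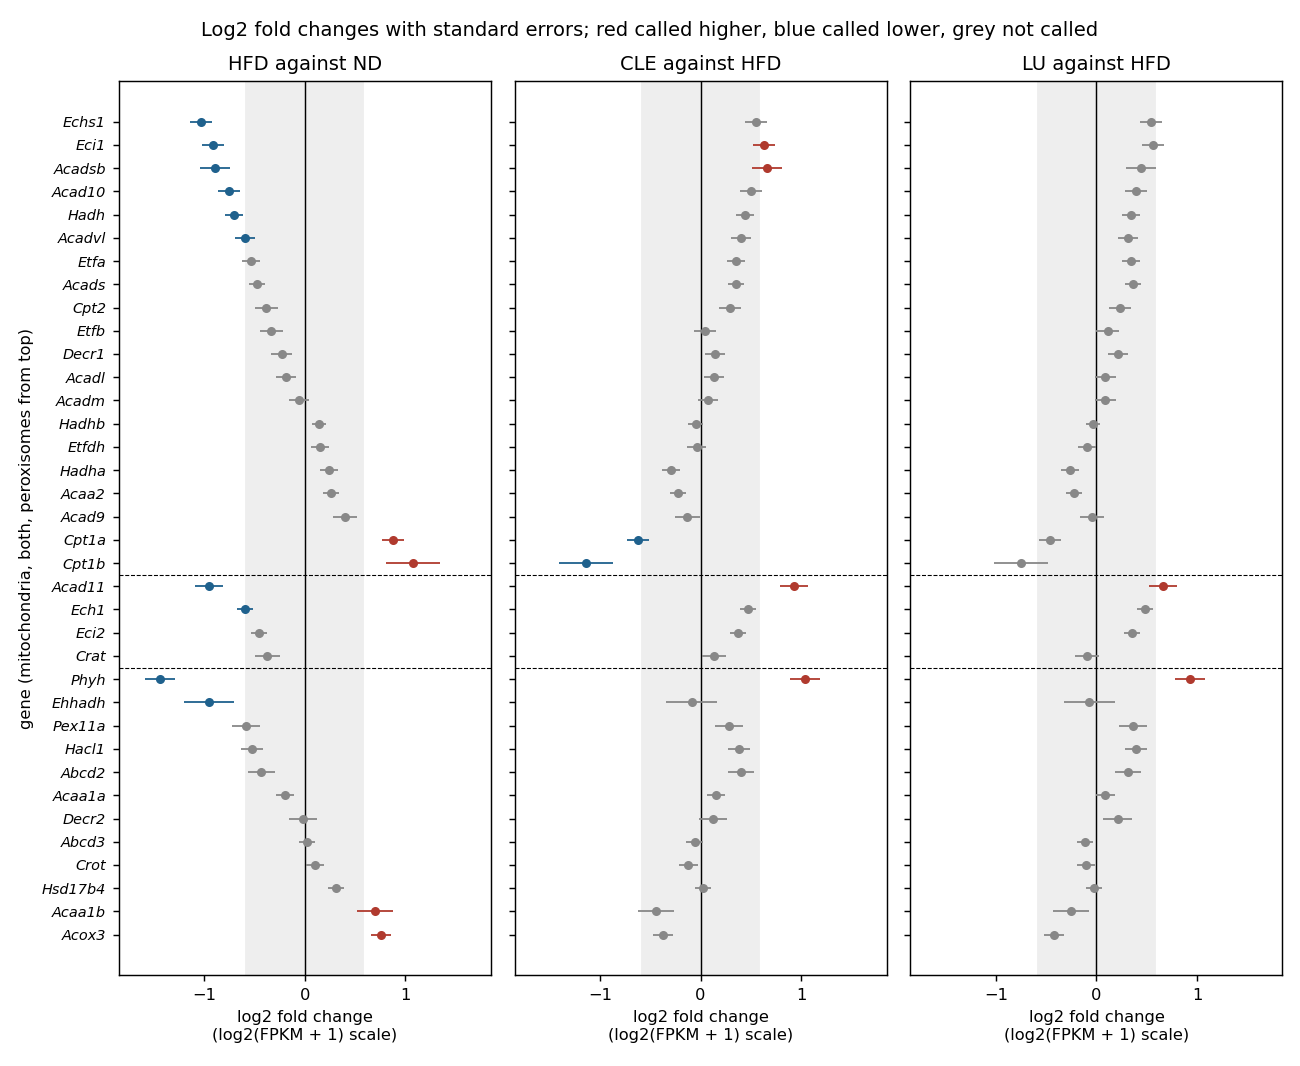
Log2 fold change on the log2(FPKM + 1) scale (horizontal axis) of the 36 tested genes (vertical axis, mitochondrial, both and peroxisomal from the top) in 3 comparisons, with bars of 1 standard error. Red points were called higher, blue points called lower and grey points not called, and the grey band marks fold changes under 1.5. HFD against ND has 4 red and 10 blue points, CLE against HFD 4 and 2, and LU against HFD 2 red points.

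In the carnitine shuttle at the entry to the mitochondrion, both *Cpt1* genes rose in HFD, while *Cpt2* was lower without a call. *Cpt1a* (chr19:3322334-3385733 in GRCm38, plus strand), the liver-type carnitine palmitoyltransferase of the outer membrane and the controlled step of entry, was at 35.7, 38.2 and 46.4 FPKM in ND. In HFD it was at 76.4, 70.6 and 76.2 FPKM, in CLE at 48.2, 44.5 and 51.6 FPKM and in LU at 56.5, 47.3 and 58.5 FPKM. The HFD mice were above all others, and LU was above ND in each mouse. *Cpt1a* rose in HFD against ND by a log2 fold change of 0.88 (SE 0.11, adjusted p = 7.3e-05). It fell in CLE against HFD, with a log2 fold change of -0.62 (SE 0.11, adjusted p = 0.0016), and this call was lost without CLE mouse 4 and without the 4 libraries with the letter R, at -0.57 in both. In LU against HFD it was at -0.46 (SE 0.11, adjusted p = 0.013), under the fold change needed for a call.

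*Cpt1b*, the muscle-type isoform of the same enzyme, was far rarer than its liver-type counterpart, at a mean of 1.54 against 54.2 FPKM over all libraries. It was at 0.756, 1.07 and 0.786 FPKM in ND, at 3.45, 2.18 and 3.35 FPKM in HFD, at 0.360, 0.370 and 2.09 FPKM in CLE and at 1.07, 1.38 and 1.63 FPKM in LU. All 3 HFD mice were above the other 9, though the third CLE mouse (mouse 11) stood close to the lowest of them. The gene rose in HFD against ND by 1.08 (log2, SE 0.27, adjusted p = 0.0058) and fell in CLE against HFD, at -1.14 (SE 0.27, adjusted p = 0.0071). In LU against HFD it was at -0.75 (SE 0.27, adjusted p = 0.058). Both calls were lost without the 4 libraries that carry the letter R, which leaves ND mouse 2 alone in its group. The log2 fold changes were then 1.17 in HFD against ND and -0.95 in CLE against HFD. The summed FPKM of 9 measured skeletal muscle markers was 0.866 to 1.52 in ND, 6.94 to 17.1 in HFD and 2.73 to 3.76 in LU. In CLE it was 1.98 in mouse 2, 1.71 in mouse 4 and 28.7 in mouse 11. The HFD mice and CLE mouse 11 were thus highest in these sums, as they were in *Cpt1b*. In each library 0 to 2 of the 9 markers were at 0. *Pvalb*, the only one of these markers that could be tested, was called higher in HFD against ND, at 2.72, and lower against HFD in CLE, at -1.67, and in LU, at -1.36. The part of these markers in the *Cpt1b* values was not tested.

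The name *Cpt1b* in the deposited table covers a merged locus on chromosome 15. Of the FPKM listed under that name, 84.5% belong to transcripts of *Chkb*, a choline kinase gene, and 8.38% to *Gm44502*. *Chkb* transcripts had a mean of 18.3 FPKM and those of *Cpt1b* itself 1.54 FPKM. With all rows under the name summed, the log2 fold change of HFD against ND was 0.03 (adjusted p = 0.83) in place of 1.08, and that of CLE against HFD was -0.27 (adjusted p = 0.058). The values given here use the transcripts of *Cpt1b* (chr15:89416405-89425863 in GRCm38, minus strand) alone. The same procedure found *Acad11*, which has no row under its own name, and it separated *Acad10* from *Acad12* (60.8% of the name) and *Eci2* from *Eci3* (14.8% of the name).

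**Figure D3:**
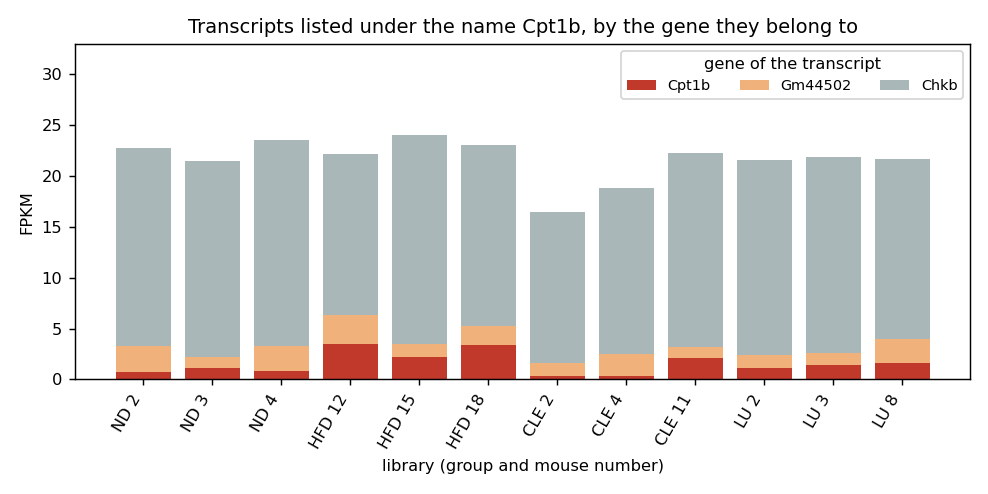
FPKM of transcripts listed under the name *Cpt1b* (vertical axis) in each of the 12 libraries (horizontal axis), stacked by the gene the transcript identifier belongs to. *Chkb* makes up most of every bar, and the red part for *Cpt1b* itself is tallest in the HFD libraries, at 2.18 to 3.45 FPKM.

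*Cpt2*, the inner membrane transferase that turns the carnitine ester back into an acyl-CoA, was at 65.1, 66.1 and 60.1 FPKM in ND and at 47.7, 50.4 and 48.4 FPKM in HFD. Its log2 fold change of -0.38 (SE 0.11, adjusted p = 0.017) stayed under the fold change for a call, although the groups did not overlap. In CLE it was at 67.3, 49.9 and 64.2 FPKM, a range that overlapped HFD, with a log2 fold change of 0.29 against HFD (SE 0.11, adjusted p = 0.070). In LU it was at 55.3, 64.3 and 53.0 FPKM, all above HFD, with 0.23 (SE 0.11, adjusted p = 0.16).

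Among the 7 mitochondrial acyl-CoA dehydrogenases, which start each cycle, 3 fell in HFD against ND and none rose, beside 10.8% and 14.9% of all genes. *Acadsb* (chr7:131410601-131448944, plus strand), which acts on short branched chains from isoleucine, went from 121, 100.1 and 85.8 FPKM in ND to 55.4, 58.2 and 48.8 FPKM in HFD, a log2 fold change of -0.89 (SE 0.15, adjusted p = 0.00042). In CLE it was at 95.4, 90.9 and 72.6 FPKM and in LU at 75.6, 82.3 and 63.9 FPKM, each above every HFD mouse. It rose in CLE against HFD by 0.66 (log2, SE 0.15, adjusted p = 0.0054), a call lost without CLE mouse 2. The corresponding value of LU was 0.44 (SE 0.15, adjusted p = 0.046), which did not pass the fold change.

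*Acadvl*, the very-long-chain enzyme bound to the inner membrane, was at 129, 122 and 111 FPKM in ND and at 80.4, 85.2 and 73.2 FPKM in HFD. Its log2 fold change of -0.59 (SE 0.10, adjusted p = 0.00048) lay at the edge of the fold change for a call and was lost without ND mouse 2, ND mouse 3 or HFD mouse 18, and with scaling to equal totals, quantile normalization or array weights. *Acad10*, a dehydrogenase fused to a kinase-like domain, was low, at 9.61, 7.41 and 7.20 FPKM in ND and 4.23, 4.48 and 4.33 FPKM in HFD, and fell with a log2 fold change of -0.75 (SE 0.11, adjusted p = 0.00016). In CLE, *Acadvl* was at 119, 97.3 and 99.98 FPKM and *Acad10* at 6.45, 7.24 and 6.03 FPKM, and in LU they were at 98.1, 103 and 95.8 FPKM and at 5.47, 6.21 and 6.41 FPKM. All of these stood above the HFD mice. The log2 fold changes against HFD were not called, with 0.40 in CLE and 0.31 in LU for *Acadvl* (both SE 0.10, adjusted p = 0.0098 and 0.036) and 0.50 and 0.39 for *Acad10* (both SE 0.11, adjusted p = 0.0045 and 0.020).

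The medium- and long-chain dehydrogenases, the most abundant of the class, had the smallest log2 fold changes of the class in HFD against ND. *Acadl* was at 215, 185 and 186 FPKM in ND, at 160, 181 and 169 FPKM in HFD, at 211, 169 and 179 FPKM in CLE and at 167, 187 and 189 FPKM in LU. ND and HFD did not overlap, but the log2 fold change of -0.19 (SE 0.10, adjusted p = 0.14) did not pass the test, and the values against HFD were 0.13 for CLE and 0.09 for LU (both SE 0.10, adjusted p = 0.38 and 0.56). Of the FPKM of *Acadl*, 51.4% came from transcripts assembled as new isoforms of the gene. *Acadm* was at -0.06 (SE 0.10, adjusted p = 0.64) in HFD against ND, between 178 and 211 FPKM in these 6 mice. *Acads* was at -0.47 (SE 0.08, adjusted p = 0.00047), under the fold change for a call. *Acad9*, also an assembly factor of respiratory complex I, was at 0.40 (SE 0.12, adjusted p = 0.016), and 65.9% of the FPKM under its name carry identifiers that the annotation used here does not hold and were left out.

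In the remaining mitochondrial steps, the hydratase and dehydrogenase of the matrix fell, while the membrane-bound complex for long chains and the last thiolase did not. *Echs1* (chr7:140105710-140116476, minus strand), the soluble enoyl-CoA hydratase, was at 167, 178 and 141 FPKM in ND and at 75.1, 85.5 and 75.7 FPKM in HFD. *Hadh* (chr3:131233419-131272101, minus strand), the soluble 3-hydroxyacyl-CoA dehydrogenase, was at 222, 241 and 214 FPKM in ND and at 140.1, 142 and 132 FPKM in HFD. Both fell in every HFD mouse below the lowest ND mouse, with log2 fold changes of -1.03 (SE 0.11, adjusted p = 2.5e-05) and -0.70 (SE 0.09, adjusted p = 8.4e-05). By contrast, *Hadha* and *Hadhb*, the subunits of the trifunctional protein, were at 0.24 (SE 0.09, adjusted p = 0.046) and 0.14 (SE 0.07, adjusted p = 0.12), and the thiolase *Acaa2* was at 0.26 (SE 0.08, adjusted p = 0.021). The last 3 were higher in each HFD mouse than in any ND mouse, by less than the fold change for a call.

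In CLE, *Echs1* was at 127, 119 and 102 FPKM and *Hadh* at 212, 185 and 169 FPKM. In LU they were at 112, 125 and 107 FPKM and at 174, 179 and 171 FPKM. Every supplemented mouse was above every HFD mouse and below every ND mouse for both genes. *Echs1* had log2 fold changes of 0.55 in CLE and 0.54 in LU against HFD (both SE 0.11, adjusted p = 0.0035 and 0.0057), just under the fold change for a call. *Hadh* had 0.44 in CLE and 0.34 in LU (both SE 0.09, adjusted p = 0.0036 and 0.019).

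*Eci1* (chr17:24426641-24439348, plus strand), the mitochondrial isomerase that moves the double bond of unsaturated chains into the position the cycle needs, was at 88.3, 81.8 and 80.4 FPKM in ND and at 45.7, 46.4 and 40.0 FPKM in HFD. It fell with a log2 fold change of -0.91 (SE 0.11, adjusted p = 3.7e-05). In CLE it was at 77.0, 67.9 and 62.1 FPKM and rose against HFD by 0.63 (log2, SE 0.11, adjusted p = 0.00097), a call lost without HFD mouse 18 or CLE mouse 2. In LU it was at 60.2, 73.6 and 63.1 FPKM, with 0.56 (SE 0.11, adjusted p = 0.0031). *Decr1*, the reductase for the same kind of chains, overlapped between ND and HFD, at -0.23 (SE 0.10, adjusted p = 0.082).

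The electron transfer flavoprotein showed no call in any of the 3 comparisons with HFD. Its alpha subunit *Etfa* was the second most abundant of the 37 genes by FPKM, at 248 on average, and had a log2 fold change of -0.53 (SE 0.09, adjusted p = 0.00058) in HFD against ND. *Etfb* was at -0.33 (SE 0.11, adjusted p = 0.024). *Etfdh*, the oxidoreductase that passes the electrons on to ubiquinone, was at 0.15 (SE 0.09, adjusted p = 0.16). The 2 subunits were thus lower and the oxidoreductase was not, on values under the fold change for a call.

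Of the 4 genes with products in both compartments, *Acad11* moved most. *Acad11* (chr9:104063377-104127725, plus strand), a dehydrogenase for long and very long chains and for hydroxylated acids, was at 172, 134 and 163 FPKM in ND and at 84.0, 80.5 and 75.3 FPKM in HFD. In CLE it was at 181, 159 and 126 FPKM, which spans the ND range, and in LU at 122, 138 and 119 FPKM. It fell in HFD against ND, at -0.95 (SE 0.14, adjusted p = 0.00015), and rose against HFD in both CLE, by 0.93 (log2, SE 0.14, adjusted p = 0.00037), and LU, by 0.66 (SE 0.14, adjusted p = 0.0049). All 3 calls held without any 1 library and under the other settings tried, except with rows by gene name, where *Acad11* has none.

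*Ech1*, a dienoyl-CoA isomerase and the most abundant of the 37 genes at a mean of 305 FPKM, was at 352, 346 and 345 FPKM in ND and at 225, 240 and 227 FPKM in HFD. Its log2 fold change of -0.59 (SE 0.08, adjusted p = 0.00016) was a call that was lost without ND mouse 2, HFD mouse 12 or HFD mouse 18, with scaling to equal totals or by median ratios, with array weights and with the letter R as covariate. The CLE mice had 311, 350.3 and 297 FPKM of it, and in LU it was at 304, 348 and 313 FPKM. Against HFD its log2 fold change was 0.47 in CLE and 0.48 in LU (both SE 0.08, adjusted p = 0.0016 and 0.0022), without overlap. *Eci2* was at -0.45 (SE 0.08, adjusted p = 0.00049) and *Crat*, the carnitine acetyltransferase, at -0.37 (SE 0.12, adjusted p = 0.021) in HFD against ND. In LU, *Crat* was at 103, 89.6 and 98.4 FPKM, below each ND mouse, with -0.46 against ND (SE 0.12, adjusted p = 0.026), and 0.22 lower than CLE without passing that test (adjusted p = 0.89).

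Peroxisomal alpha oxidation showed the strongest decrease of the 36 genes. *Phyh* (chr2:4919019-4938730, plus strand), the phytanoyl-CoA hydroxylase that starts the removal of 1 carbon from phytanic acid, was at 139, 134 and 123 FPKM in ND and at 48.6, 52.0 and 43.6 FPKM in HFD. In CLE it was at 113, 111 and 78.6 FPKM and in LU at 90.0, 109.6 and 80.2 FPKM. Each supplemented mouse stood between the HFD and the ND range. The log2 fold changes were -1.44 in HFD against ND (SE 0.15, adjusted p = 1.6e-05), 1.04 in CLE against HFD (SE 0.15, adjusted p = 0.00037) and 0.93 in LU against HFD (SE 0.15, adjusted p = 0.0012), all called and kept without any 1 library. *Hacl1*, the lyase of a later step of the same route, moved the same way without a call, at -0.52 (SE 0.11, adjusted p = 0.0020), 0.38 and 0.39 (both SE 0.11, adjusted p = 0.018 and 0.019).

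**Figure D4:**
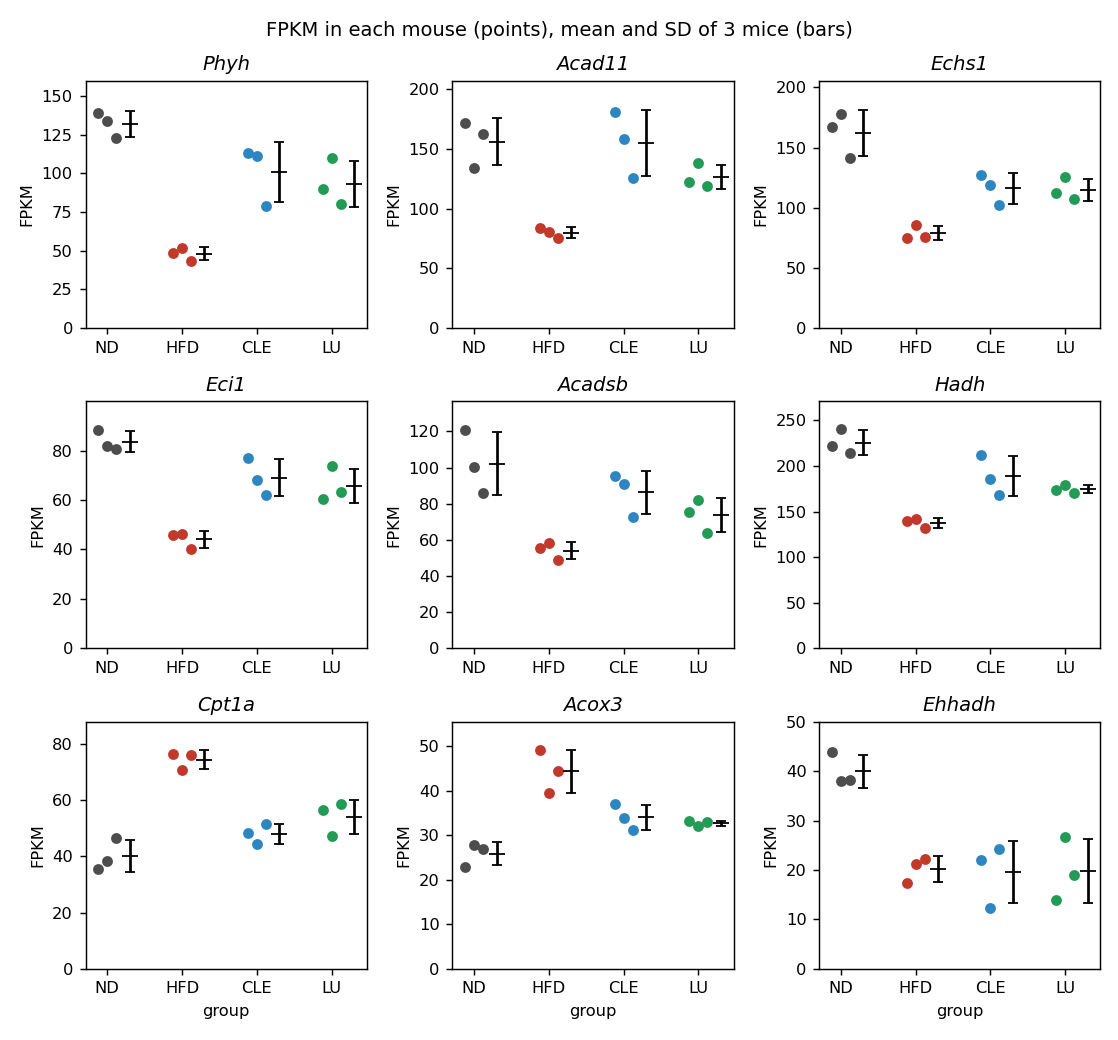
FPKM (vertical axes, from 0) of 9 FAO genes in each mouse (points) of the 4 groups (horizontal axes), with the mean and SD of 3 mice (bars). In *Phyh*, *Acad11*, *Echs1*, *Eci1*, *Acadsb* and *Hadh* the HFD points lie below all others, in *Cpt1a* and *Acox3* above all others, and in *Ehhadh* HFD, CLE and LU lie together below ND.

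The enzymes of peroxisomal chain shortening did not move as 1 group. *Acox3* (chr5:35583040-35615352, plus strand), an acyl-CoA oxidase that acts on branched chains, was at 22.9, 27.8 and 26.8 FPKM in ND and at 49.0, 39.5 and 44.4 FPKM in HFD, and rose with a log2 fold change of 0.76 (SE 0.10, adjusted p = 0.00012). In CLE it was at 36.9, 33.8 and 31.2 FPKM and in LU at 33.1, 32.0 and 32.8 FPKM, between the ND and the HFD range in each mouse. The log2 fold changes against HFD were -0.37 for CLE and -0.42 for LU (both SE 0.10, adjusted p = 0.017 and 0.011), under the fold change for a call.

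*Ehhadh* (chr16:21761287-21787807, minus strand), the L-bifunctional enzyme of the peroxisome, was at 43.9, 38.0 and 38.2 FPKM in ND, at 17.3, 21.3 and 22.2 FPKM in HFD, at 22.1, 12.4 and 24.3 FPKM in CLE and at 13.8, 26.7 and 19.0 FPKM in LU. The ND mice stood above the other 9, and the 3 groups on the high-fat diet overlapped. It fell in HFD against ND, at -0.95 (SE 0.25, adjusted p = 0.0076), and the values against HFD were -0.09 for CLE and -0.07 for LU (both SE 0.25, adjusted p = 0.81 and 0.86). Their 95% intervals were -0.63 to 0.45 and -0.61 to 0.47. The lowest CLE and LU values were those of the libraries that carry the letter R. *Hsd17b4*, the D-bifunctional enzyme that carries out the same steps on other chains, was instead at 0.31 (SE 0.08, adjusted p = 0.0054) in HFD against ND, without overlap and under the fold change for a call, and 42.2% of its FPKM came from newly assembled isoforms.

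*Acaa1a* and *Acaa1b*, a pair of peroxisomal thiolases on chromosome 9, differed. *Acaa1b* (chr9:119148023-119157093, minus strand) was at 91.2, 68.8 and 101 FPKM in ND and at 147, 139 and 136 FPKM in HFD, and rose with a log2 fold change of 0.70 (SE 0.18, adjusted p = 0.0072), a call lost without ND mouse 3 and with the letter R as covariate. *Acaa1a* (chr9:119339676-119350299, plus strand) was at 59.6, 63.8 and 67.0 FPKM in ND and 53.7, 58.1 and 53.9 FPKM in HFD, with -0.20 (SE 0.09, adjusted p = 0.087). Their coding sequences are near-identical, so reads could be split between them and both values are uncertain. Of 1275 coding bases, 44 differ (96.5% identity), and 24.1% of all windows of 100 bases, the read length, are the same in both. The stretch from coding base 271 to 330, read from the GENCODE transcripts, holds 11 of the differences, shown in capitals, and so shows where reads can tell the pair apart.
Acaa1a: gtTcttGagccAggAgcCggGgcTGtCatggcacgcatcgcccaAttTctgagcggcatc
Acaa1b: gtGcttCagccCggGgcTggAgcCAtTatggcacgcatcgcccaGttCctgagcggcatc
In addition, 65.1% of the FPKM of *Acaa1b* came from newly assembled isoforms, and the call was lost without them. In CLE *Acaa1b* was at 104, 83.1 and 126 FPKM, below HFD in each mouse, with -0.44 (SE 0.18, adjusted p = 0.081), and in LU at 104, 106 and 147 FPKM, with -0.25 (SE 0.18, adjusted p = 0.32).

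Genes for the import, export and division of peroxisomes, and the peroxisomal reductase *Decr2*, gave no call in any comparison. *Pex11a*, which promotes peroxisome division, was at -0.58 (SE 0.14, adjusted p = 0.0049) and *Abcd2*, an importer of very long chains, at -0.43 (SE 0.13, adjusted p = 0.017) in HFD against ND. *Abcd3*, the importer of branched and dicarboxylic chains, was at 0.02 (SE 0.08, adjusted p = 0.88). *Crot*, which exports shortened chains as carnitine esters, was at 0.10 (SE 0.09, adjusted p = 0.41), and *Decr2* was at -0.02 (SE 0.14, adjusted p = 0.90). The last 3 overlapped between ND and HFD.

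CLE supplementation raised 4 FAO genes against HFD and lowered 2, where 16.5% of all genes were called, 6.33% higher and 10.1% lower. The share of FAO genes called in either direction, 6 of 36 or 16.7%, was that of all genes. *Phyh*, *Acad11*, *Acadsb* and *Eci1* rose, and *Cpt1a* and *Cpt1b* fell. By adjusted p alone 14 were higher and 4 lower, where 33.6% of all genes passed, 15.5% higher and 18.1% lower. The groups did not overlap for 23 of the 36 genes, 15 higher and 8 lower in CLE, beside 50.6% of all genes. The median log2 fold change was 0.14 over the FAO genes and 0.01 over all genes, with 0.13 for mitochondrial, 0.42 for both-compartment and 0.07 for peroxisomal genes. In the mitochondrial class the highest value was *Acadsb* and the lowest *Cpt1b*, in the peroxisomal class *Phyh* and *Acaa1b*.

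LU supplementation raised *Phyh* and *Acad11* against HFD and lowered none of the 36, where 12.4% of all genes were called, 4.81% higher and 7.64% lower. By adjusted p alone 13 were higher and 2 lower, beside 26.8% of all genes, 13.2% higher and 13.6% lower. The groups did not overlap for 22 of the 36 genes, 16 higher and 6 lower in LU, beside 47.6% of all genes. The median log2 fold change was 0.16 over the FAO genes and 0.03 over all genes. The highest mitochondrial value was *Eci1*, at 0.56, and the lowest *Cpt1b*, at -0.75, and of the peroxisomal genes *Acox3* was lowest, at -0.42. Because CLE and LU were both set against the same 3 HFD mice, the likeness of the lists is no independent evidence.

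Set directly against each other, CLE and LU did not differ in any FAO gene by limma at an adjusted p under 0.05, and none had an unadjusted p under 0.05. The mice of the pair of groups did not overlap for *Crat* and *Acad9*, 2 of 36 genes beside 9.03% of all genes. Among all genes, 1 of 12775 (0.00783%) was called. The log2 differences of CLE minus LU ran from -0.39 for *Cpt1b* to 0.28 for *Acad11*, with a median of 0.01. For 35 of the 36 genes the 95% interval of the difference lay within a fold change of 1.5 in either direction, the exception being *Cpt1b*, with -0.98 to 0.20. The doses of extract and luteolin differ, so this sets the diets as fed side by side.

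Against ND, the supplemented groups retained 1 called FAO gene each, *Ehhadh*, at -1.04 in CLE (SE 0.25, adjusted p = 0.038) and -1.02 in LU (SE 0.25, adjusted p = 0.021). Of all genes, 2.91% were called in CLE against ND, 2.06% higher and 0.853% lower, and 6.59% in LU against ND, 4.97% higher and 1.62% lower. By adjusted p alone 1 FAO gene was higher and 2 were lower in CLE, beside 3.26% and 1.91% of all genes, and 2 were higher and 5 lower in LU, beside 8.68% and 4.12%. The groups did not overlap for 9 of the 36 genes in CLE and 17 in LU, beside 24.7% and 30.1% of all genes. The CLE call was lost in 8 of the 12 fits without 1 library, each ND and each HFD mouse, CLE mouse 4 and CLE mouse 11, and the LU call without ND mouse 2, LU mouse 2 or LU mouse 8. *Echs1* was also lower than in ND, at -0.48 in CLE (adjusted p = 0.038) and -0.49 in LU (both SE 0.11, adjusted p = 0.017), under the fold change for a call. In LU, *Phyh* was at -0.51 (SE 0.15, adjusted p = 0.048) and *Cpt1a* at 0.43 (SE 0.11, adjusted p = 0.031) against ND. The median over the FAO genes was -0.07 in CLE and -0.11 in LU.

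Within CLE, mouse 11 had the lowest FPKM of *Phyh*, *Acad11*, *Acadsb*, *Eci1*, *Echs1* and *Hadh* and the highest of *Cpt1a* and *Cpt1b*, which is nearest to HFD in each case. Of the 14 genes called in HFD against ND, this mouse was the CLE mouse nearest to the HFD mean for 11, and the exceptions were *Acadvl*, *Acox3* and *Ehhadh*. The same mouse had the highest sum of macrophage markers in the group, at 1035, and the lowest of adipocyte markers, at 26282. The part of cell composition in these values was not tested.

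**Figure D5:**
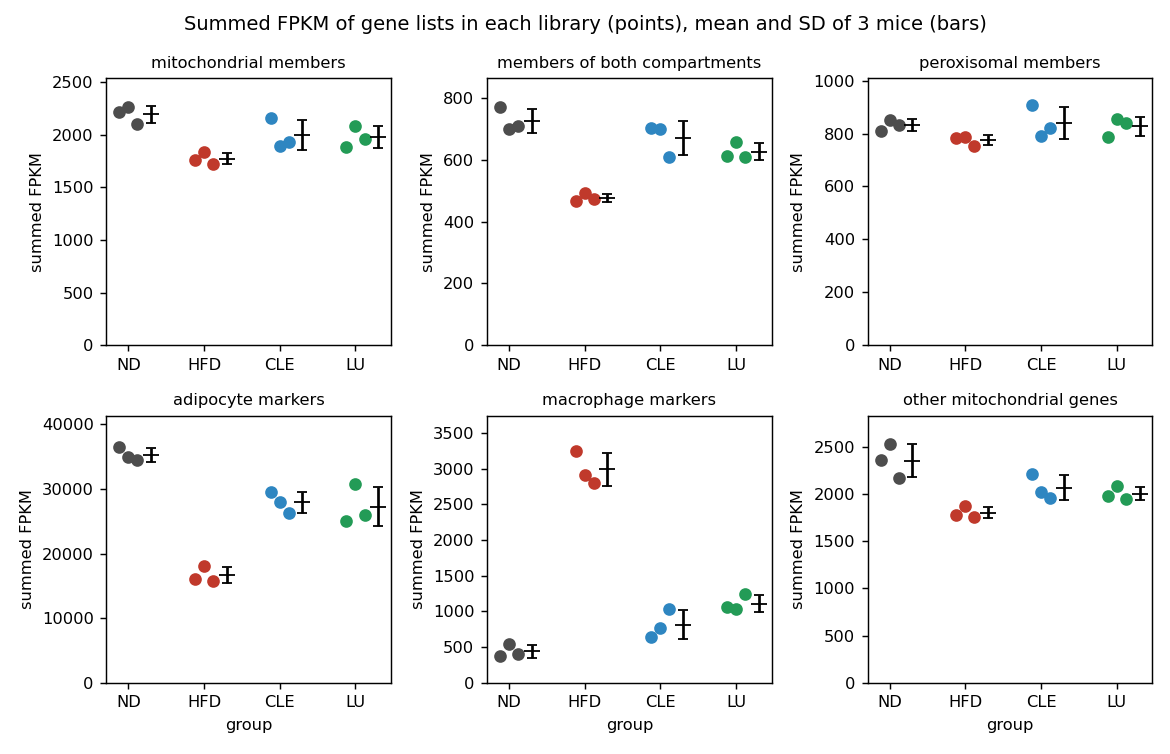
Summed FPKM (vertical axes, from 0) of the mitochondrial, both-compartment and peroxisomal FAO genes and of 3 other lists, in each library (points) of the 4 groups, with the mean and SD of 3 mice (bars). Adipocyte markers are lowest and macrophage markers highest in HFD, and the sums of the 3 FAO classes and of the other mitochondrial genes are also lowest in HFD, with the HFD and LU points of the peroxisomal class almost touching.

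Other mitochondrial genes gave a reference for these values. Of 20 genes of the citric acid cycle, succinate dehydrogenase, outer membrane channels and matrix chaperones and proteases, 3 fell and none rose in HFD against ND, a share of 15% beside 10.8% of all genes called lower, with a median log2 fold change of -0.30. By adjusted p alone 14 were lower and 1 higher, beside 24.8% and 25.7% of all genes. The median of the mitochondrial FAO genes was close, at -0.28. Against HFD the medians of the reference genes were 0.16 in CLE and 0.13 in LU, and those of the mitochondrial FAO genes 0.13 and 0.16. The lower values in HFD were thus not particular to the mitochondrial FAO genes. Their summed FPKM was 2351 ± 175.6 in ND, 1801 ± 59.0 in HFD, 2064 ± 131 in CLE and 2001 ± 69.6 in LU (mean ± SD, n = 3). *Idh3b*, at -0.82, was the lowest.

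Of a wider list of 25 FAO-related genes, 22 were tested. In HFD against ND 9 fell and 2 rose, beside 10.8% and 14.9% of all genes, with a median log2 fold change of -0.35. *Acot4*, a peroxisomal thioesterase for dicarboxylic acids, was at 12.4 ± 6.59 FPKM in ND, 1.33 ± 0.209 in HFD, 5.59 ± 0.812 in CLE and 3.01 ± 0.183 in LU (mean ± SD, n = 3), and *Acacb*, the acetyl-CoA carboxylase whose malonyl-CoA inhibits carnitine palmitoyltransferase, fell with -1.82 (SE 0.26, adjusted p = 0.00016). *Acot2*, a mitochondrial thioesterase, fell with -1.30 (SE 0.17, adjusted p = 8e-05), and *Scp2*, a lipid transfer protein and peroxisomal thiolase of branched chains, with -1.03 (SE 0.11, adjusted p = 2e-05). In CLE against HFD 7 rose and 1 fell, beside 6.33% and 10.1% of all genes, with *Acot4* at 1.50 and *Acacb* at 1.27. In LU against HFD *Acot4* rose, at 0.79 (SE 0.24, adjusted p = 0.034).

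Of 18 peroxisome biogenesis and membrane genes, 4 fell and none rose in HFD against ND, with a median of -0.31. That is 22.2% called, all of them lower, beside 10.8% of all genes called lower and 25.6% called in either direction. By adjusted p alone 12 were lower and 0 higher, beside 24.8% and 25.7% of all genes. *Pxmp2*, a channel of the peroxisomal membrane, was at 28.6 ± 5.17 FPKM in ND, 12.0 ± 0.594 in HFD, 23.2 ± 2.62 in CLE and 20.1 ± 1.98 in LU (mean ± SD, n = 3), and was called in all 3 comparisons. *Pex6*, an ATPase that recycles the import receptor, fell with -0.84 (SE 0.12, adjusted p = 0.00015) and rose in CLE against HFD by 0.67 (log2, SE 0.12, adjusted p = 0.0014).

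Of 19 transcriptional regulators of FAO tested, 2 rose and none fell in HFD against ND, with a median log2 fold change of -0.14. That is 10.5% called, both higher, beside 14.9% of all genes called higher and 25.6% called in either direction. *Perm1*, an activator of oxidative genes known from muscle, was at 0.265 ± 0.0566 FPKM in ND, 2.51 ± 0.318 in HFD, 0.602 ± 0.550 in CLE and 0.767 ± 0.366 in LU (mean ± SD, n = 3), and was called in all 3 comparisons. It was near the floor outside HFD, with highest values of 0.327 FPKM in ND, 1.23 in CLE and 1.17 in LU. It passed the filter of 1 FPKM in 3 libraries only through HFD, the group where it was high. Its calls are therefore a description and no support for a rise of regulators. The sums of skeletal muscle markers given above were also higher in HFD than in ND, and their part in the *Perm1* values was not tested. *Ppara*, the nuclear receptor that is the classical activator of many FAO genes, is named here after its values were seen. It was at 3.10 ± 1.31 FPKM in ND and 2.41 ± 0.270 in HFD (mean ± SD, n = 3), with -0.22 (SE 0.21, adjusted p = 0.40).

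Nuclear receptors that act on FAO genes bind a direct repeat of the half-site AGGTCA. The 250 bases before the start of each gene, from RefSeq on GRCm38.p6, were searched on both strands for 30 of the 37 genes with an entry. AGGTCA repeated in the same direction with 1 base N between was found in none of the 30 and in 0.0407% of 27025 genes, and the looser repeat of AGGNCA with the same spacing in none and in 0.4%. The single half-site AGGTCA, which the first pattern contains, was found in 4 of 30 (13.3%) and in 15.8% of all genes. These 4 windows, with the half-site or its reverse complement in capitals and the strand of the gene, show only where it lies.
Echs1 (chr7:140116487-140116516, minus strand): accagcccgctcAGGTCAcgggtccacccc
Acadvl (chr11:70015498-70015527, minus strand): atggatcaccctAGGTCAggtagaatacag
Cpt1a (chr19:3323195-3323224, plus strand): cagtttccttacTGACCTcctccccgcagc
Acadm (chr3:153944875-153944893, minus strand): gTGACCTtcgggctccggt
*Echs1* and *Acadvl* fell, *Cpt1a* rose and *Acadm* overlapped between ND and HFD. The RefSeq start of *Cpt1a* used here lies inside the gene as GENCODE gives it, so its window does too, while the windows of *Echs1* and *Acadvl* lie before both starts. A match is a description of these letters and no binding site was measured. At shares as low as 0.0407% and 0.4%, no match among 30 genes was to be expected, so the lack of the repeat says nothing about these genes. The share with the half-site, 13.3%, was near the 15.8% of all genes, and sequence beyond the 250 bases was not searched.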

How the data were processed

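RNA of eWAT from 12 mice was sequenced, and the authors deposited a table of FPKM values of 152210 transcripts, either known from Ensembl or newly assembled, in which each library has a column. The labels' processing notes name CASAVA 1.8.2, Bowtie2 2.2.3, TopHat2 2.0.12 and Cufflinks 2.2.1, and the genome build is not given in the sources used here. The table has 15 such columns, of which 3 belong to none of the samples and were left out. For ND mouse 4, a column headed MD4 was taken by inference, since the letter R and the number are those of this mouse and the header names the column in the ND arm of a comparison. Columns of the authors' own comparisons were not used. The authors called genes on read counts, which the table does not hold, and low FPKM values did not give whole reads back: 26.3% to 34.3% of values of 3806 single-transcript genes lay within 0.1 reads of a whole number under the step size tried, where 20% would if they were spread evenly, so the depth is unknown and no counting interval can be given.

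Transcripts that are known, or assembled and matched to a known one, were assigned to genes by their Ensembl transcript identifier in GENCODE M21 (GRCm38), which held 77000 of 78786 known identifiers, 87.6% of them with the same start and end, and were summed per gene. The gene name in the table was not used, since it can cover neighbouring genes. limma 3.58.1 in R 4.3.3 was fitted to log2(FPKM + 1) of the 12775 genes that reached 1 FPKM in 3 or more libraries, in 1 fit of all 12 libraries without covariate and with Benjamini-Hochberg adjustment per comparison. A fold change on this scale understates the change of low genes. Calls needed a change of over 1.5-fold and an adjusted p below 0.05, the thresholds of the study. P-values rest on the spread between the 3 mice within each group, pooled over all groups and moderated across genes, and not on the compared groups alone. The paper calls the 3 samples of each group representative, and how they were picked is not given. Tested on simulated data for HFD against ND, the fit recovered 185 of 200 genes changed by a log2 change of 1, by adjusted p alone, and passed 13 of the others. The changed genes were drawn from those above a set mean level and were 200 of 12775, a far smaller share than passed in the data. These values therefore do not cover changes near 1.5-fold or low genes such as *Cpt1b*. A change of 1.5-fold was also simulated, and its recovery is not reported here.

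The genes and lists were chosen with earlier results of these data known. Full values were given for each gene called against ND or HFD in the 3 main comparisons and for *Cpt1a*, *Cpt2* and *Acadl*. The study measured these by another method, and its text names *Cpt2* and *Acadl* in eWAT but *Cpt1a* in liver. The other FAO genes are covered by counts, the extremes of each compartment and short values, and at most 4 called genes of each other list are named. The results of some genes of these lists are not reported here. Tables and plots used Python 3.11.15, pandas 2.3.3, numpy 2.4.6 and matplotlib 3.10.9. Liver, brown and beige fat, and epididymis and testis markers were also measured: the summed FPKM lay between 7.39 and 39.9 for 10 liver genes, 26.7 and 41.9 for 8 brown and beige genes, and 0.0759 and 5.73 for 10 epididymis and testis genes.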

Additional observations from a re-analysis of the deposited data

How the results depend on the processing

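Pseudocount, filters, scaling, trend and array weights, a covariate for the letter R, the libraries without it, other transcript sets, the gene names of the table (chosen after seeing the data) and each library left out were tried. The median log2 fold change of the FAO genes stayed between -0.40 and -0.29 in HFD against ND, 0.09 and 0.19 in CLE against HFD and 0.11 and 0.21 in LU against HFD. Scaling moved the median of all genes by at most 0.068. By adjusted p alone, the called FAO genes were 27 in place of 14 in HFD against ND, 18 in place of 6 in CLE against HFD, 15 in place of 2 in LU against HFD, 3 in place of 1 in CLE against ND and 7 in place of 1 in LU against ND. With rows by the table's gene name 1 was called in LU against HFD, since *Acad11* was then hidden. In CLE against ND, none was called without the filter, with only the compared groups, with the transcript of highest mean or without newly assembled isoforms. Fits without the libraries with the letter R leave ND mouse 2 alone in its group. There the *Ehhadh* calls of CLE and LU against ND were lost, and in LU against ND *Crat* was at -0.72 and *Acad9* at 0.60. Leaving out 1 library gave 12 to 16 calls in HFD against ND, 4 to 7 in CLE against HFD, 2 to 4 in LU against HFD (4 without HFD mouse 15), 0 to 1 in CLE against ND and 0 to 2 in LU against ND, and a median of -0.14 (without CLE mouse 2) to -0.04 in CLE against ND. *Ehhadh* changed sign against HFD: in CLE it was at 0.10 with the letter R as covariate, 0.19 without the libraries with the letter R and 0.19 without CLE mouse 4, and in LU at 0.12, 0.15 and 0.15 without LU mouse 2. Leaving out 1 library spanned -0.27 (without CLE mouse 11) to 0.19 in CLE and -0.30 (without LU mouse 3) to 0.15 in LU. The cause was not tested. HFD shares no mouse number with the other groups, and same-numbered libraries of ND, CLE and LU did not deviate together (r from -0.099 to 0.189), as different mice. With the replicate number as a block, 0 FAO genes were called in CLE against ND and 0 in LU against ND, on 2 residual degrees of freedom. The unknown depth limits what can be said of low genes such as *Cpt1b*.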

Other observations

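Enzymes next to FAO were also measured. Of 7 tested genes of the pyruvate dehydrogenase kinases and of ketone metabolism, *Pdk2*, a kinase that holds pyruvate dehydrogenase inactive, was at 110.5 ± 33.3 FPKM in ND, 40.9 ± 2.59 in HFD, 85.4 ± 10.9 in CLE and 73.2 ± 7.18 in LU (mean ± SD, n = 3). It fell in HFD against ND, with a log2 fold change of -1.37 (SE 0.18, adjusted p = 6.9e-05), and rose in CLE, by 1.04 (SE 0.18, adjusted p = 0.0010), and in LU, by 0.82 (SE 0.18, adjusted p = 0.0058), against HFD.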
